A study of Penicillium oxalicum with 15 samples.

Results

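Of the 9976 genes measured in mycelia of Penicillium oxalicum, 2 endoglucanase genes are described here, cel7B (PDE_07929) and cel5B (PDE_09226). They were chosen by their locus tags, and their names rest on prior knowledge of the species, since the deposited table holds tags alone. Gene lengths worked back from the table were 1425 bases for cel7B and 1242 bases for cel5B, read as coding lengths. RNA was measured in 5 groups of 3 libraries. The reference strain M12 and gClrBID, a strain overexpressing an internal mutant of the activator ClrB, were each grown on glucose and on cellulose. The creA deletion strain, labelled dcreA, was grown on cellulose, and its response to glucose was not analysed here. All mycelia spent 22 h in Vogel's medium with 2% glucose and then 4 h in Vogel's medium with 2% (w/v) of either carbon source, at 30 °C and 200 rpm, so the cellulose groups had also been precultured on glucose. The series text calls the libraries biological triplicates and says nothing more of the cultures, so that p-values cover only the spread among them. The labels describe neither the promoter of the ClrB construct nor how many clones of each strain were used.

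Cellulose is broken down outside the fungal cell by enzymes that act together. Endoglucanases cut the chains at internal sites, cellobiohydrolases release cellobiose from the chain ends, lytic polysaccharide monooxygenases cleave crystalline chains by oxidation, and beta-glucosidases split cellobiose into glucose. In filamentous fungi the genes of these enzymes are held low on glucose, where the zinc finger repressor CreA acts in carbon catabolite repression, and are raised on cellulose through activators such as ClrB. The names place cel7B and cel5B in different families of glycoside hydrolases.

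The libraries held between 10129674 and 18361208 fragments. creA was at 0 to 2 fragments per library in the deletion strain. clrB stood at 469 ± 16.4 FPKM in gClrBID and 10.1 ± 0.345 in M12 on glucose (SD, n = 3 each). On cellulose it stood at 73.7 ± 16.5 FPKM in gClrBID and 153 ± 6.43 in M12 (SD, n = 3 each). FPKM are fragments per kilobase of gene, scaled to a common number of counted fragments, so levels of different genes can be compared per length. In bulk mycelium a larger share of expressing cells and more RNA per cell cannot be told apart.

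cel7B was lowest in M12 on glucose and highest in the creA deletion on cellulose. On glucose M12 held 4.40, 3.92 and 4.86 FPKM of cel7B, on 110, 100 and 105 fragments. On cellulose the same strain held 199, 205 and 208 FPKM. In gClrBID the values were 2257, 2216 and 2384 FPKM on glucose and 1788, 1692 and 1628 FPKM on cellulose. The creA deletion strain on cellulose held 3755, 3965 and 3956 FPKM. No 2 of the 5 groups overlapped. How many other genes had 5 separate groups was not counted, so the separation does not set cel7B apart. The lowest group lay far under the next, at the level of genes near rank 7161 of the table, while the highest was at rank 27 by mean FPKM.

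cel5B started lower and reached higher. On glucose M12 held 1.51, 1.798 and 0.690 FPKM of cel5B, on 33, 40 and 13 fragments. On cellulose M12 held 134, 136 and 145 FPKM. In gClrBID the values were 8754, 9224 and 9717 FPKM on glucose and 3937, 4098 and 4018 FPKM on cellulose. The creA deletion strain on cellulose held 5613, 5020 and 5594 FPKM. Here too the 5 groups were separate, with the same limit. cel5B was at rank 7950 by mean FPKM in M12 on glucose and at rank 6 in gClrBID on glucose, where it took 1.15 ± 0.0598% of all fragments (SD, n = 3), against 0.326 ± 0.0125% for cel7B.

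**Figure D1:**
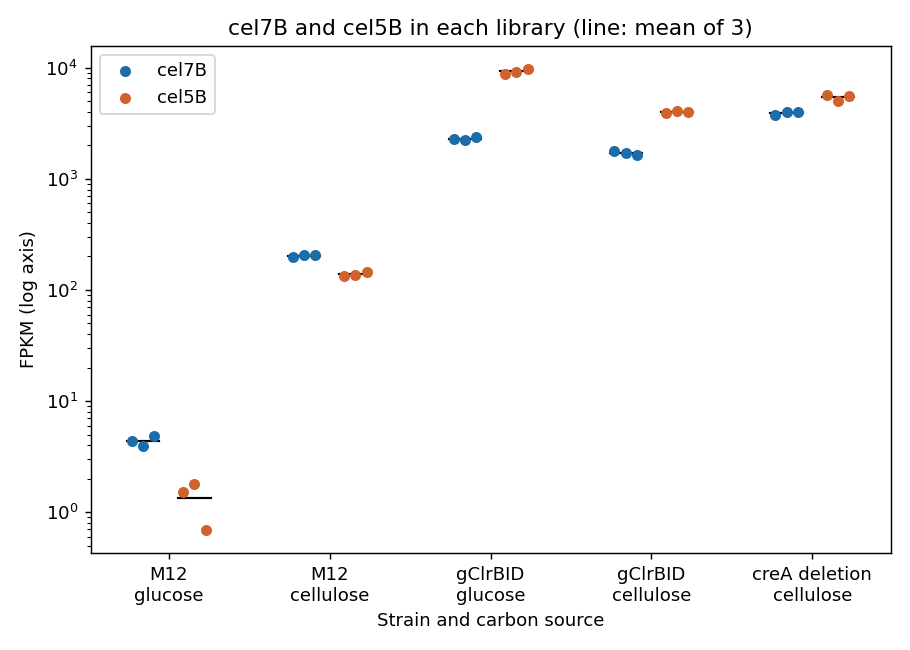
FPKM of cel7B and cel5B on a log axis, with 1 point per library and a line at the mean of 3, for each strain and carbon source. cel7B lies above cel5B in the M12 libraries and below it in the gClrBID and creA deletion libraries, and cel5B in M12 on glucose spreads from 0.690 to 1.798 FPKM.

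The error of these levels was uneven. Between replicates the coefficient of variation of cel7B was 10.7% in M12 on glucose, against 9.76% from counting error alone, and 2.06 to 4.73% elsewhere. For cel5B it was 43.1% in M12 on glucose, against 18.7% from counting, and 2.00 to 6.22% elsewhere. The low value came from replicate 3, whose exact Poisson interval at 95% was 0.368 to 1.18 FPKM, below that of replicate 2, at 1.28 to 2.45. These intervals cover counting error only. Fold changes against M12 on glucose are therefore less precise for cel5B than for cel7B.

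The order of the groups differed between the genes at its upper end. From low to high, cel7B ran from M12 on glucose (4.39 FPKM on average) through M12 on cellulose (204), gClrBID on cellulose (1703) and gClrBID on glucose (2286) to the creA deletion on cellulose (3892). cel5B ran from M12 on glucose (1.33) through M12 on cellulose (138), gClrBID on cellulose (4018) and the creA deletion on cellulose (5409) to gClrBID on glucose (9232). Neighbours in both orders differed beyond their spread by limma on log2(FPKM + 1), with p-values adjusted by the Benjamini-Hochberg method over 8765 tested genes. limma pools the spread of each gene over all 5 groups, so its SE is the same in every comparison of 2 groups. For cel5B this SE was 0.13, with or without M12 on glucose in the comparison, and is not the spread of the 2 groups alone. For cel5B the step from gClrBID on cellulose to the creA deletion was the least certain, with an adjusted p of 0.00661 in limma that rose to 0.087 with a pseudocount of 0.1 and lay between 5.7e-06 and 0.087 over all alternatives.

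In M12, the reference strain, both genes rose on cellulose. cel7B rose 46.4-fold and cel5B 104-fold by their mean FPKM. On the log2(FPKM + 1) scale, which understates the change of genes near 0, the rises were 5.25 ± 0.06 and 5.93 ± 0.13 (SE, n = 3 per group), with adjusted p of 2.5e-19 and 3.1e-16 in limma. All 3 cellulose libraries were above all 3 glucose libraries for each gene. Of all tested genes 41.3% were called higher and 42.8% lower on cellulose, at an adjusted p under 0.05, so the call alone sets the 2 genes apart little. By size, 101 and 67 of the 8765 tested genes had a greater log2 fold change than cel7B and cel5B.

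Whether gClrBID holds more of these transcripts than M12 without cellulose was measured on glucose. The strain is described as overexpressing a mutant ClrB, and no group overexpressed the unaltered activator. The mutation and the amount of ClrB can thus not be told apart. cel7B stood 520-fold and cel5B 6921-fold above M12 by mean FPKM. The log2 fold changes were 8.73 ± 0.06 and 11.98 ± 0.13 (SE, n = 3 per group), with adjusted p of 3.4e-22 and 1.0e-19 in limma. Among the tested genes 9 had a greater fold change than cel7B, and 1 had a greater one than cel5B, which was the cellobiohydrolase gene cel6A. Here 17.0% of the tested genes were called higher and 54.7% lower. The median over all tested genes was -0.26 (log2), relative to which the genes stood at 8.99 and 12.24. Median-of-ratios scaling brought that median to 0.00 and turned these shares into 34.0% and 33.3%, and cel5B then rose by 12.21 on the log2 scale.

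The gClrBID levels on glucose were also far above those of M12 on the inducing carbon source. cel7B was 11.2-fold and cel5B 66.7-fold higher than in M12 on cellulose, with log2 fold changes of 3.48 ± 0.06 and 6.05 ± 0.13 (SE, n = 3 per group) and adjusted p of 1.5e-17 and 1.7e-16 in limma. In this comparison 34.6% of the tested genes were called higher and 51.6% lower, and strain and carbon source both differ.

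On cellulose the mutant strain again held more of each transcript than M12. cel7B was 8.35-fold and cel5B 29.0-fold higher, with log2 fold changes of 3.06 ± 0.06 and 4.85 ± 0.13 (SE, n = 3 per group) and adjusted p of 2.1e-15 and 5.3e-14 in limma. Of the tested genes 27.3% were called higher and 32.1% lower, and 42 and 8 of them rose more than cel7B and cel5B. The clrB value was lower in gClrBID than in M12 on cellulose, at 73.7 ± 16.5 against 153 ± 6.43 FPKM (SD, n = 3 each), while the endoglucanase genes were higher. Fragments of clrB in gClrBID could not be split into mutant and native copies.

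Within gClrBID the direction of the carbon response was the opposite of that in M12. On cellulose cel7B was at 0.745 and cel5B at 0.435 of its level on glucose. The log2 fold changes were -0.42 ± 0.06 and -1.20 ± 0.13 (SE, n = 3 per group), with adjusted p of 5.0e-06 and 1.8e-07 in limma, and no cellulose library reached the lowest glucose library. Of the tested genes 34.3% were called lower and 49.4% higher here. The median of all tested genes was 0.21, so relative to it the genes fell by 0.63 and 1.41 on the log2 scale. clrB was at 0.157 of its glucose level in the same libraries.

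The difference between these responses was tested as an interaction term, in which the strain difference on glucose is taken from the one on cellulose. It was -5.68 ± 0.08 for cel7B and -7.13 ± 0.18 for cel5B (log2, SE, n = 3 per group), with adjusted p of 2.9e-17 and 2.4e-14 in limma. More negative values were found for 13 and 2 of the tested genes, and 20.1% of the tested genes were called negative and 48.0% positive, or 29.8% and 33.3% after median-of-ratios scaling. The interaction equals the log2 response to cellulose in gClrBID (-0.42 for cel7B, -1.20 for cel5B) less that in M12 (5.25 and 5.93). The rise in M12 on cellulose thus makes up the larger part of it.

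On cellulose both genes were higher in the creA deletion strain than in M12. cel7B stood 19.1-fold and cel5B 39.1-fold above M12, with log2 fold changes of 4.25 ± 0.06 and 5.28 ± 0.13 (SE, n = 3 per group) and adjusted p of 1.8e-17 and 1.0e-14 in limma. Of the tested genes 21.2% were called higher and 54.2% lower, or 36.6% and 35.1% after median-of-ratios scaling, and 52 and 24 rose more than cel7B and cel5B. The median of all tested genes was -0.28, relative to which the genes stood at 4.53 and 5.56. brlA, the regulator of conidiation, stood at 317 ± 40.5 FPKM in the deletion strain and 42.3 ± 7.51 in M12 on cellulose (SD, n = 3 each), and the part of conidiating cells in these differences was not tested.

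The altered strains differed from each other, and not in the same way for both genes. With the creA deletion as the reference, gClrBID on cellulose had less cel7B (log2 fold change -1.19 ± 0.06, adjusted p = 4.1e-11) and less cel5B (-0.43 ± 0.13, adjusted p = 0.00661; limma, SE, n = 3 per group). The cel5B call was lost with a pseudocount of 0.1 (-0.43, adjusted p = 0.087 in limma). Both SE come from the spread in all 5 groups, M12 on glucose included. Here 19.8% of the tested genes were called lower and 50.3% higher, or 35.8% and 31.4% after median-of-ratios scaling. Against gClrBID on glucose, where strain and carbon source both differ, the creA deletion on cellulose held 1.70 times as much cel7B and 0.586 times as much cel5B. The log2 fold changes were 0.77 ± 0.06 and -0.77 ± 0.13 (SE, n = 3 per group), with adjusted p of 3.3e-09 and 2.9e-05 in limma, while 41.2% of the tested genes were called higher and 43.5% lower.

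**Figure D2:**
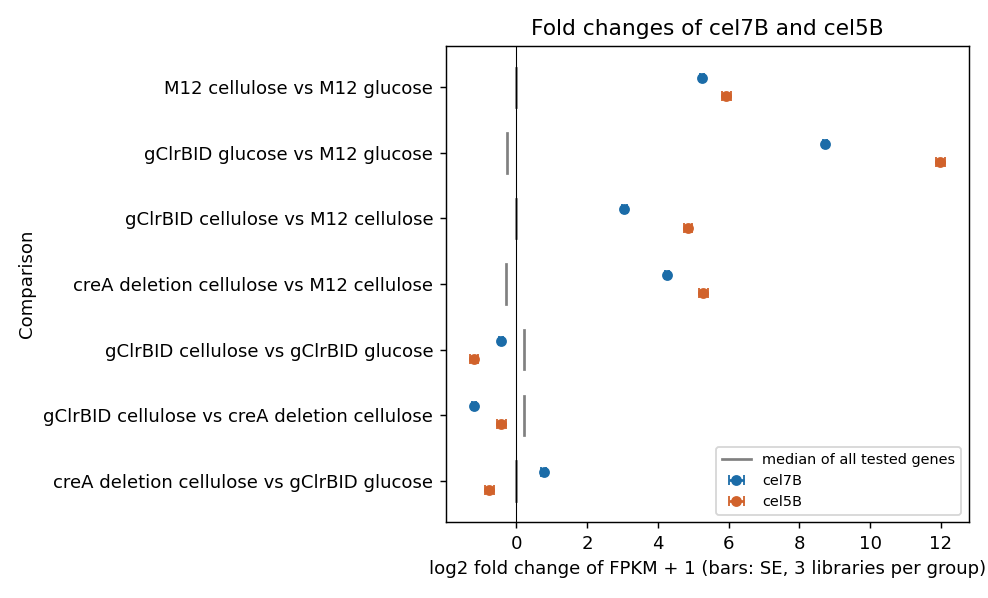
log2 fold change of FPKM + 1 for cel7B and cel5B in 7 comparisons, with bars for the SE and a grey line at the median of all tested genes. cel5B lies to the right of cel7B in the 4 comparisons with M12, to the left within gClrBID, and on the opposite side of 0 from cel7B between the creA deletion on cellulose and gClrBID on glucose.

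Several of these comparisons share libraries, the M12 cellulose group entering most of them, and the fold changes are not independent of each other. The ratio of the genes within each library removes the scaling of the library. Since the fold changes were known when it was formed, it restates them with a test of its own. In M12 on glucose the ratio of cel5B to cel7B FPKM was 0.344, 0.459 and 0.142. In M12 on cellulose it was 0.672, 0.664 and 0.701. In gClrBID it was 3.88, 4.16 and 4.08 on glucose and 2.20, 2.42 and 2.47 on cellulose, and in the creA deletion it was 1.49, 1.27 and 1.41. cel7B was thus the more abundant transcript in all 6 M12 libraries and cel5B in all 9 libraries of the altered strains, and no group overlapped another.

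**Figure D3:**
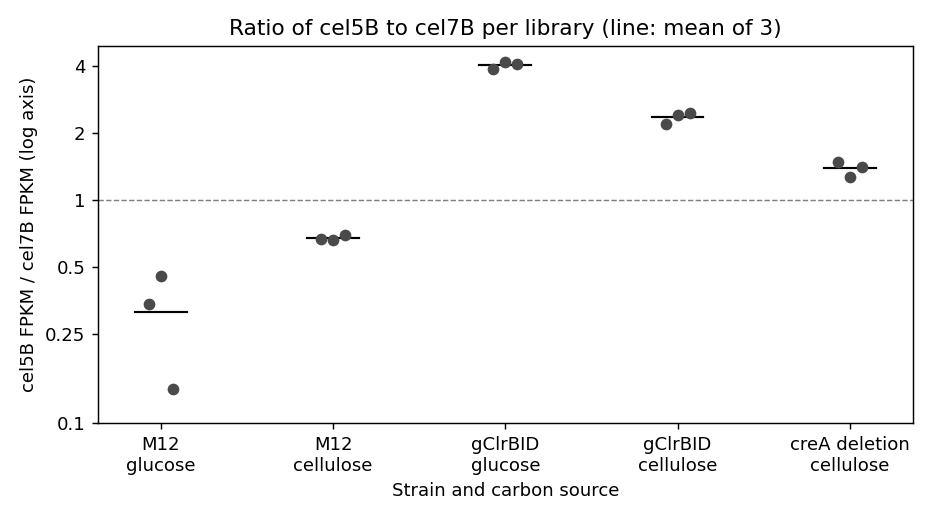
Ratio of cel5B to cel7B FPKM in each library on a log axis, with a line at the mean of 3 and a dashed line at 1. The M12 libraries lie below 1, the creA deletion between 1.27 and 1.49, and gClrBID above 2 on both carbon sources.

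The groups accounted for 0.974 of the sum of squares of the log2 ratio, formed with a pseudocount of 1. An exact permutation test over all 1401400 divisions of the 15 libraries into 5 groups of 3 gave p = 7.1e-07, the smallest it can give. Between gClrBID and M12 within the same carbon source the log2 ratio was higher by 2.52 on average (exact permutation test within carbon sources, 2-sided p = 0.005, the smallest of 400 divisions). The shift was 3.25 on glucose and 1.79 on cellulose. The creA deletion shifted it by 1.03 from M12 on cellulose. Cellulose shifted the log2 ratio by 0.68 in M12 and by -0.77 in gClrBID. Each of the 8 single comparisons of 3 libraries with 3 had a 2-sided exact p of 0.10, and 0.10 after adjustment over the 8, which is the smallest that such a comparison allows. Without replicate 3 of M12 on glucose the shift in M12 was 0.40, and without a pseudocount it was 1.27.

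The endoglucanase genes were set beside the other cellulase genes of the list, the cellobiohydrolase genes cel7A-2 and cel6A and the lytic polysaccharide monooxygenase gene cel61A. As a share of the summed FPKM of the 5 genes, a measure chosen after the values were seen and given with no test, cel7B and cel5B together made up 63.5 ± 3.33% in M12 on glucose, where each of the 5 genes was under 5 FPKM. They made up 23.2 ± 0.472% in M12 on cellulose, 37.5 ± 0.474% and 38.6 ± 0.483% in gClrBID on glucose and cellulose, and 15.9 ± 0.0954% in the creA deletion (SD, n = 3 each). Per gene, cel5B was at 30.1 ± 0.590% and 27.1 ± 0.767% in gClrBID on glucose and cellulose and at 9.37 ± 0.0537% and 9.22 ± 0.325% in M12 and the creA deletion on cellulose. cel7B was at 7.45 ± 0.130% and 11.5 ± 0.410% in gClrBID on glucose and cellulose, and at 13.8 ± 0.435% and 6.64 ± 0.331% in M12 and the creA deletion on cellulose. The levels of both endoglucanase genes were highest in the altered strains, while their joint share was lowest in the creA deletion. Between M12 and the creA deletion on cellulose the share of cel6A went from 4.46 ± 0.390% to 25.6 ± 0.548% and that of cel61A from 1.66 ± 0.0593% to 6.94 ± 0.303%, while that of cel7A-2 went from 70.7 ± 0.495% to 51.6 ± 0.917% (SD, n = 3 each).

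**Figure D4:**
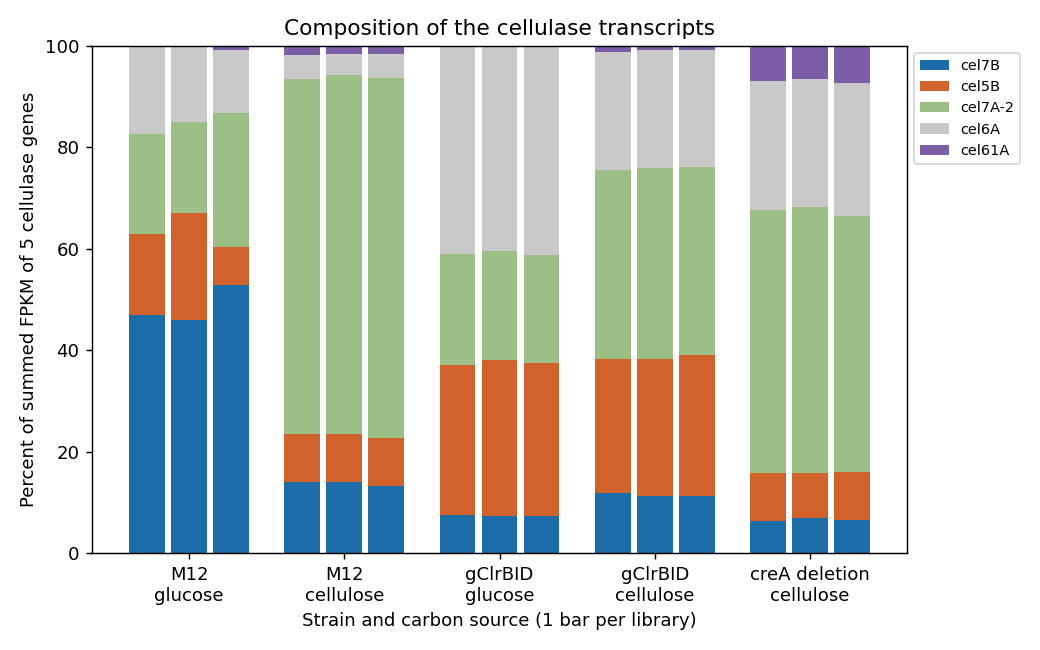
Share of each gene in the summed FPKM of cel7B, cel5B, cel7A-2, cel6A and cel61A, in percent, with 1 bar per library. The joint share of cel7B and cel5B is 22.6 to 23.4% in M12 on cellulose, 37.1 to 39.1% in gClrBID and 15.8 to 16.0% in the creA deletion.

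Of 10 other genes of the pathway (cel7A-2, cel6A and cel61A, the beta-glucosidase genes bgl2 and PDE_02736, the xylanase gene xyn10A, the cellodextrin transporter gene cdtC, and the regulator genes clrB, creA and xlnR), 10 were called higher in M12 on cellulose, beside 41.3% of all tested genes. The median log2 fold change of the list was 4.50, beside -0.02 for all tested genes. Since the list was chosen with earlier results of these data known, its distance from all tested genes is a description and not a test. In gClrBID on glucose 9 of 10 were called higher than in M12 and PDE_02736 was lower, with a median of 7.29, beside 17.0% called higher and a median of -0.26 over all tested genes. The 9 include clrB, whose mutant form the strain is described as overexpressing, so its call is no finding of its own. They also include cel61A, which stayed low at 0.523 FPKM on 2 to 7 fragments per library, against 0.0293 FPKM on 0 to 1 fragments in M12. On cellulose 8 of 10 were higher in gClrBID, with clrB and creA lower and a median of 1.65, beside 27.3% and -0.02 over all tested genes. In the creA deletion 6 of 10 were higher, with PDE_02736, clrB and the deleted creA lower, xlnR not called and a median of 2.08, beside 21.2% and -0.28 over all tested genes. Within gClrBID 5 of 10 were lower on cellulose, namely cel7A-2, cel6A, bgl2, cdtC and clrB, and 5 were higher, beside 34.3% lower and 49.4% higher of all tested genes, so the share called higher was near the background. The cel7A-2 call there was lost on the TPM scale (log2 fold change -0.13, adjusted p = 0.147), and in the creA deletion the clrB call was lost (-0.18, adjusted p = 0.136), PDE_02736 turned to 0.02 and xlnR was called higher (0.32, adjusted p = 1.2e-05 in limma) under median-of-ratios scaling. Without replicate 1 of the creA deletion PDE_02736 was at -0.23 (adjusted p = 0.052 in limma).

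The genes with the most similar pattern were sought by Pearson's r of log2(FPKM + 1) over the 15 libraries, among 7508 genes that reached a mean of 10 FPKM in some group. The points are 5 groups of 3, so that a few large steps decide r, and the values are descriptions. For cel7B the highest were PDE_06023 (0.998), PDE_00507 (0.997), xyn10A (0.992), PDE_07928 (0.991) and PDE_09969 (0.990). For cel5B they were PDE_09969 (0.996), PDE_00507 (0.993), PDE_06023 (0.993), PDE_04251 (0.991) and cel7B itself (0.989). cel5B came at position 6 for cel7B. The cellobiohydrolase genes cel7A-2 and cel6A stood at positions 7 and 12 for cel7B and at positions 19 and 6 for cel5B, and the regulator gene clrB had an r of 0.786 to cel7B and 0.803 to cel5B.

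**Figure D5:**
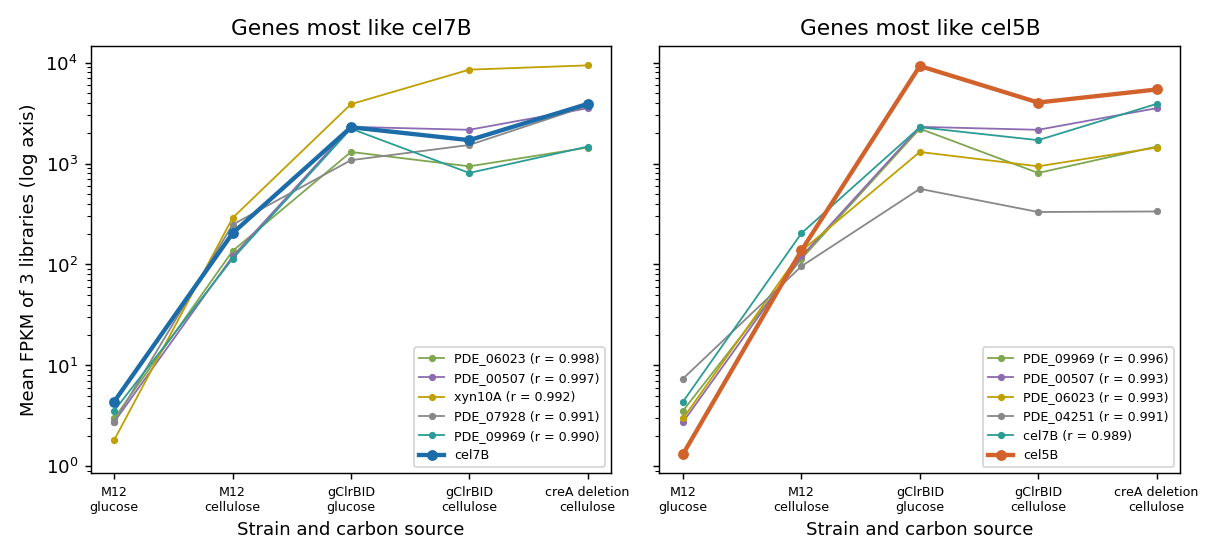
Mean FPKM of 3 libraries per group on a log axis, for cel7B (left) and cel5B (right) as thick lines and the 5 genes with the highest r to each as thin lines. On the right panel cel5B lies above the thin lines in gClrBID on both carbon sources and in the creA deletion. It reached 9232 FPKM against 2307 for PDE_00507 in gClrBID on glucose. In gClrBID on cellulose it reached 4018 against 2157 for PDE_00507, and in the creA deletion 5409 against 3892 for cel7B.

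PDE_07928 carries the tag next to that of cel7B and stood at 2.76, 248, 1079, 1526 and 3724 FPKM on average in M12 on glucose, M12 on cellulose, gClrBID on glucose, gClrBID on cellulose and the creA deletion. Of the 20 tags within 5 of either gene, 14 were high enough for an r, and it was the single one with an r over 0.9. PDE_07927, 2 tags before cel7B, was at 762 FPKM in M12 and 14.9 FPKM in gClrBID on glucose, a difference in the opposite direction. PDE_09225, just before cel5B, stood at 385 FPKM in M12 and 105 FPKM in gClrBID on glucose. The tags just after the genes had the higher mean in gClrBID on glucose. PDE_07930, after cel7B, was at 20.7 FPKM in M12 and 49.1 FPKM in gClrBID, and PDE_09227, after cel5B, at 6.62 and 8.83 FPKM. Of all tested genes 54.7% were called lower and 17.0% higher in that comparison. Whether consecutive tags are neighbours in the genome was not analysed here.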

How the data were processed

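RNA-seq of 15 libraries was deposited as 1 table. Its values are FPKM computed by the authors, and each column was assigned by the sample title it carries. The tools listed, per the submitters' processing notes and without their roles, are DESeq2, HISAT2 2.0.0, CASAVA 1.8 and featureCounts 1.5.0-p1. Build, annotation and strand setting are not given in the sources used here, so reads shared with similar, overlapping or antisense genes could not be assessed.

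Whole fragments were worked back from the FPKM steps. All 9789 genes above 0 came out whole within 5.1e-05 FPKM, after a common factor of 3 was removed. Genes with at least 1 FPKM in at least 3 libraries were tested on log2(FPKM + 1) with limma 3.58.1 (R 4.3.3), with 1 mean per group over all libraries, an intensity trend and Benjamini-Hochberg adjustment. The model and the exact tests were tried on simulated data as a self-test, which did not copy the low values and wider spread of M12 on glucose. Alternatives were a pseudocount of 0.1, no filter, median-of-ratios scaling, TPM, voom weights on fragments, a replicate block and leaving out each library.

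The genes, the list of 10 pathway genes and the tests were chosen with earlier results of these data known. Named beside them were the 5 genes with the highest r and tags within 5. None of the identifiers matched the RefSeq gene list of strain HP7-1.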

Additional observations from a re-analysis of the deposited data

Results flagged for a closer look

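For cel7B the effect of gClrBID against M12 differed between the carbon sources by -5.68 on the log2 scale, and for cel5B by -7.13, both by limma's test of the interaction. Each effect was smaller on cellulose, where M12 already held 204 FPKM of cel7B and 138 FPKM of cel5B.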

How the results depend on the processing

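The 18 log2 fold changes of cel7B and cel5B, interactions included, kept their direction in all 378 alternatives and their side of the threshold in 377. The exception was cel5B between gClrBID and the creA deletion on cellulose, at -0.43 with a pseudocount of 0.1 (adjusted p = 0.087). The fold change itself did not move, while its SE, drawn from all 5 groups, went from 0.13 to 0.21. With voom weights the SE was 0.07 (adjusted p = 5.7e-06 in limma). The cause was not tested. The shift of the cel5B to cel7B log2 ratio grew from 0.68 to 1.18 (pseudocount 0.1) and 1.27 (none) between cellulose and glucose in M12, and from 3.25 to 3.75 and 3.84 between gClrBID and M12 on glucose, because a smaller pseudocount leaves the low M12 values on glucose less compressed. Leaving out 1 library gave 0.40 to 0.89 and 2.97 to 3.46 for these shifts. Median-of-ratios scaling changed the numbers called higher and lower to 2977 and 2916 (from 1493 and 4797) for gClrBID against M12 on glucose, to 3208 and 3078 (from 1860 and 4751) for the creA deletion against M12, and to 2752 and 3136 (from 4412 and 1737) for gClrBID against the creA deletion. Of the pathway genes, PDE_02736 turned to 0.02 in the creA deletion under this scaling. The interaction of cel61A, 1.84 in the main fit, lost its call with a pseudocount of 0.1 (0.18, adjusted p = 0.695 in limma). With voom weights it was -0.87 ± 1.32 (SE, adjusted p = 0.574 in limma), so its sign is not settled. On glucose cel61A held 0 to 1 fragments per library in M12 and 2 to 7 in gClrBID. Same-numbered libraries did not deviate together (median r of -0.0074, 0 of 30 pairs over 0.1), so no pairing by number was seen. A weak shared effect could be missed by this measure. With the replicate block the cel5B call between gClrBID and the creA deletion had an adjusted p of 0.0105, and the numbers called higher and lower for cellulose in M12 were 3607 and 3745. The 13 to 40 fragments of cel5B per M12 glucose library limit its fold changes.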
